A study of Mus musculus with 7 samples.

Results

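The genes described here are 8 noncoding hosts of small nucleolar RNAs (snoRNAs): Gas5, Snhg1, Snhg3, Snhg4, Snhg5, Snhg6, Snhg8 and Snhg12. They were chosen by name, not by any measured value, though with earlier results of these data known. All 8 were found among the 22556 genes of the count files. All 8 passed the filter on low counts that left 15186 genes for the comparison of total counts, and all 8 were among the 12932 genes with enough allelic fragments to compare the parental alleles. The libraries were made from chromatin-associated RNA (ChrRNA-seq), the RNA that stays in the insoluble chromatin pellet of lysed nuclei and is rich in transcripts still being made. The cells were undifferentiated female mouse embryonic stem cells (mESCs) whose parental genomes come from the 129S strain (Dom) and from Mus musculus castaneus (Cast), so that a fragment over a polymorphism can be assigned to an allele. In iXist-ChrX-Dom (4 libraries) a TetOn promoter replaced the promoter of Xist on the Dom X chromosome, and in iXist-ChrX-Cast (3 libraries) it replaced that on the Cast X chromosome. All 7 libraries came from cells treated with 1 µg/mL doxycycline, which turns on Xist, for 10 days, so no library here is uninduced. The lines are clonal, so a difference between the lines cannot be told apart from a difference between clones, and the file names leave the clone of some iXist-ChrX-Cast libraries in doubt, as described below.

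A snoRNA host gene is transcribed by RNA polymerase II, and its snoRNAs are cut out of its introns after splicing. Box C/D snoRNAs guide the methylation of riboses in other RNAs and carry a C box near the 5′ end and a D box near the 3′ end. Box H/ACA snoRNAs guide pseudouridylation and end shortly after an ACA. The spliced host RNAs are mostly short-lived in the cytoplasm, where translation exposes many of them to nonsense-mediated decay, while ChrRNA-seq samples them on chromatin. Gas5 was named for its rise in growth-arrested cells, and Snhg3 hosts the Snora73 (U17) RNAs, which act in the processing of ribosomal RNA precursors.

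GENCODE (release 21 for mouse, GRCm38, the same build as mm10) places 29 snoRNA entries of 60 to 205 nt inside the 8 hosts on the strand of the host. By their letters, 17 held a TGATGA within 25 bases of the 5′ end and a CTGA within 20 bases of the 3′ end, 6 of over 100 nt held an ACA within 8 bases of the 3′ end, and 6 held neither. Gas5 holds 9 entries and Snhg1 holds 8, while Snhg6 and Snhg8 hold 1 each. The sequences of 7 of them follow as DNA letters, to show the classes these hosts carry and the near-identical pairs of Snhg3 and Snhg5. Capitals mark TGATGA and CTGA in the C/D type and the ACA in the H/ACA type.
Snora73a in Snhg3 (chr4:132352775-132352979, minus strand): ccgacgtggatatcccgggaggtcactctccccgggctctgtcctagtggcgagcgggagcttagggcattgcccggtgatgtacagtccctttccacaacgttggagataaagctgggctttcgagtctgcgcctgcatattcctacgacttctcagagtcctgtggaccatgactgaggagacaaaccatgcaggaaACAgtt
Snora73b in Snhg3 (chr4:132352322-132352526, minus strand): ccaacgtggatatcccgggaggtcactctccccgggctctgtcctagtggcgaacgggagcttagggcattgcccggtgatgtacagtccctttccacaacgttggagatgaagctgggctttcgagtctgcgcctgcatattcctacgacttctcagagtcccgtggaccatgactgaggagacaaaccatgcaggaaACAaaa
Snord50a in Snhg5 (chr9:88521529-88521600, minus strand): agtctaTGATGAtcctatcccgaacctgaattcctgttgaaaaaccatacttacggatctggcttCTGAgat
Snord50b in Snhg5 (chr9:88521797-88521868, minus strand): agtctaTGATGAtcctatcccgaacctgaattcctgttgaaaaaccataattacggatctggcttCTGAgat
Snord47 in Gas5 (chr1:161038082-161038158, plus strand): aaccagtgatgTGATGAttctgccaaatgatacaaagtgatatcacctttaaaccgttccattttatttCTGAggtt
Snord87 in Snhg6 (chr1:9942463-9942549, minus strand): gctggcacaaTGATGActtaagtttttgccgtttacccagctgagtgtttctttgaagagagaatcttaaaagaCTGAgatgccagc
Snora24 in Snhg8 (chr3:123507937-123508066, minus strand): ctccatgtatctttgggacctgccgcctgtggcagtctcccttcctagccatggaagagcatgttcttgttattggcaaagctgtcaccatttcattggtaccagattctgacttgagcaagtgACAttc
Snora73a and Snora73b were identical at 198 of 205 aligned positions (96.6%), with a longest identical stretch of 56 nt. Snord50a and Snord50b differed at 1 of 72 positions. Snora73a and Snora73b together cover 23.4% of the span of Snhg3. The files have no row for these snoRNAs, and a host's count takes in exons, introns and the snoRNA stretches within them, which cannot be told apart. Only uniquely aligned reads were kept, so a fragment lying wholly in a stretch that such a pair shares could not be counted.

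Counted fragments ranged from 14877384 to 24309806 per library, and 44.2% to 46.4% of them were assigned to an allele. Xist, the gene carrying the engineered promoter, was counted at 5319 to 7045 CPM (counts scaled to a library of 1000000 fragments), with 0.0773% to 0.125% of its allelic fragments from Cast in iXist-ChrX-Dom and 94.0% to 94.7% in iXist-ChrX-Cast, the allele that the labels give in each line. All 8 embryonic stem cell markers were counted in both lines. Of the markers of other cells, the 7 for fibroblast feeders summed to 21.9 to 35.0 CPM in iXist-ChrX-Dom and 24.8 to 32.3 CPM in iXist-ChrX-Cast, the 5 for neural precursors to 21.1 to 44.6 and 15.1 to 22.2 CPM (Sox1 at 0 in every library), and the 4 for primitive endoderm to 39.5 to 54.0 and 36.9 to 50.9 CPM. Their part in the results was not tested. The files of replicates 1 and 2 follow a different naming scheme from those of replicates 3 and 4, and the labels name no batch. These are called the sample sets here, and 4606 of 15186 genes (30.3%) differed between them with line as a covariate. For replicates 3 and 4 of iXist-ChrX-Dom the description field reads d1, whereas the title and treatment say 10 days, which was followed. The clone named by the files of replicates 1 and 2 of iXist-ChrX-Cast is 1 character away from the clone in their labels and in the file of replicate 3, and whether they are the same clone was not tested. Values of a line are listed below in the order of its replicate numbers. Those within replicates 1 and 2 alone are therefore given beside results that rest on the other libraries.

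The 8 hosts were among the most densely counted genes of the chromatin fraction. Per kilobase of gene, the share of the 15186 genes tested that had a lower level ran from 99.2% for Snhg8 to 99.97% for Snhg3. Snhg3 had the highest level at 777 ± 524 CPM per kb (mean ± SD over 7 libraries) and Snhg8 the lowest at 38.2 ± 6.05 CPM per kb. Between them, in falling order, stood Gas5 at 231 ± 51.4, Snhg1 at 185 ± 18.2, Snhg5 at 95.5 ± 11.8, Snhg4 at 62.3 ± 3.48, Snhg12 at 52.0 ± 10.95 and Snhg6 at 39.3 ± 5.04 CPM per kb. The neighbours Gas5 and Snhg1, Snhg4 and Snhg12, and Snhg6 and Snhg8 lay within 1 SD of each other, and the place of Snhg3 above Gas5 in every library depended on a level that itself varied 5.43-fold between libraries. At the other end, Snhg4 varied 1.14-fold between its lowest and highest library, the least of the 8. The deposited counts were used to the level of the gene, so these values say nothing on the level of any mature snoRNA.

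**Figure D1:**
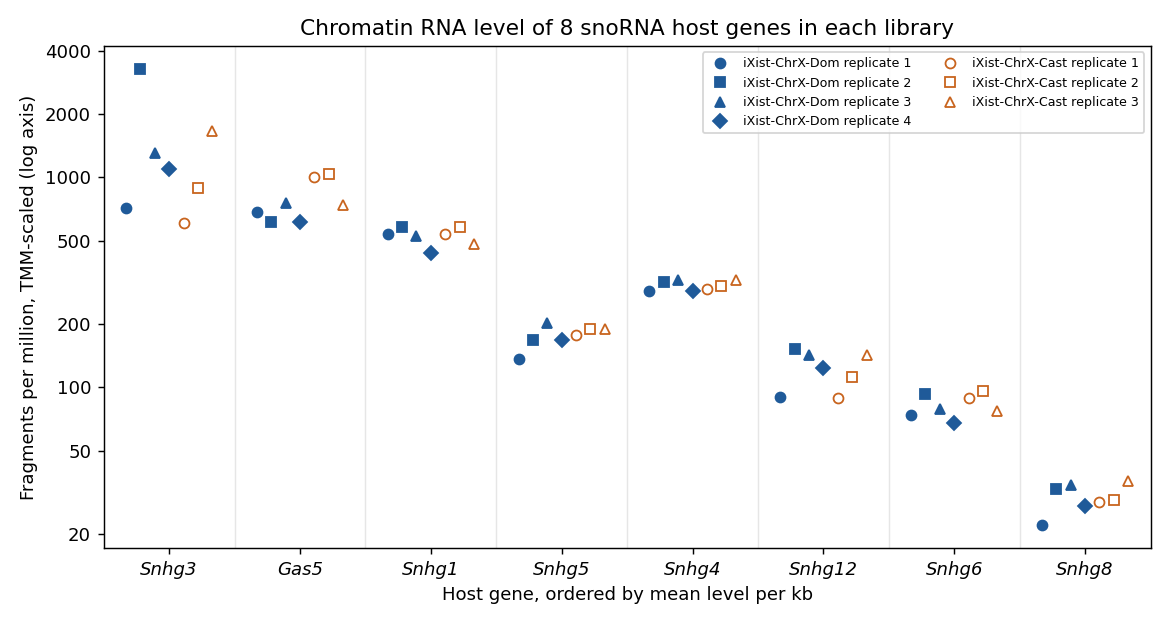
CPM after TMM scaling (log axis) for each host gene, with 1 point per library, filled for iXist-ChrX-Dom and open for iXist-ChrX-Cast. Snhg3 reached 3284 CPM in iXist-ChrX-Dom replicate 2, Gas5 was highest in iXist-ChrX-Cast replicates 1 and 2, and the points of the lines overlapped for all 8 genes.

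The comparison of the lines asks which genes differ in their total chromatin RNA between cells with Xist expressed from the Dom and from the Cast X chromosome. None of the 8 hosts lies on the X chromosome. By edgeR, 0 of the 8 differed between the lines at an adjusted p under 0.05, against 443 of 15186 genes (2.92%). At an unadjusted p under 0.05 the count was 1 of 8 (Gas5), beside 17.4% of all genes, and DESeq2 also called 1 of 8 (Gas5), beside 7.23% of all genes. The median log2 fold change of the 8, iXist-ChrX-Dom over iXist-ChrX-Cast, was -0.07, beside -0.00 for all genes tested, and their libraries overlapped between the lines for 8 of 8 genes, where 16% of all genes tested did not overlap. With the replicate number as a block, 1794 genes were called, and again 0 of the 8 hosts. With the sample set as a covariate 2398 genes (15.8%) were called, and 1 host, Gas5.

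Gas5 (chr1:161035165-161038537, plus strand) came nearest to a difference. It was counted at 686, 614, 757 and 613 CPM in the iXist-ChrX-Dom libraries and at 1003, 1034 and 738 CPM in those of iXist-ChrX-Cast. Replicates 1 and 2 of iXist-ChrX-Cast lay above every iXist-ChrX-Dom library, while replicate 3 lay among them. These are bulk samples, in which fewer cells expressing a gene and less RNA of it per cell cannot be told apart. The log2 fold change was -0.47 (SE 0.14, adjusted p = 0.0993), from a mean of 668 ± 68.4 CPM (SD, n = 4) in iXist-ChrX-Dom and 925 ± 163 CPM (SD, n = 3) in iXist-ChrX-Cast. It was called at -0.44 (adjusted p = 0.0182) with the sample set as a covariate, and at -0.64 (SE 0.10, adjusted p = 0.00257) within replicates 1 and 2, where 11% of genes were called. Leaving out iXist-ChrX-Cast replicate 3 gave -0.61 (adjusted p = 0.0134), the replicate block -0.42 (adjusted p = 0.0626), and leaving out iXist-ChrX-Dom replicate 2 gave -0.43 (adjusted p = 0.207). The difference was smallest without iXist-ChrX-Cast replicate 2 (-0.39, adjusted p = 0.43) or replicate 1 (-0.40, adjusted p = 0.262), the libraries in which Gas5 was highest. Within replicates 3 and 4 the difference of mean log2 CPM was -0.12, with no test because iXist-ChrX-Cast has a single library there.

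The rest of chromosome 1 moved the same way in the same libraries. Over 905 other genes of chromosome 1 the median log2 difference between the lines was -0.20 in replicates 1 and 2 but -0.00 in replicates 3 and 4, and over the 122 tested genes within 10 Mb of Gas5 it was -0.22 and -0.06. The median Cast share of chromosome 1 genes was 42.7% and 42.0% in iXist-ChrX-Cast replicates 1 and 2 and 46.0% to 46.7% in the other 5 libraries. Snhg6, the other host on chromosome 1, differed by -0.15 (SE 0.13, adjusted p = 0.598). Replicates 1 and 2 of iXist-ChrX-Cast are also the libraries whose files carry the other clone name. The part of the clone or of the chromosome as a whole in the Gas5 values was not tested. As a difference of mean log2 CPM within replicates 1 and 2, Gas5 gave -0.65, beside the chromosome's median of -0.20. Where Gas5 ranked among the chromosome 1 genes was not counted.

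The remaining hosts differed by less than the spread between libraries. Snhg1 (chr19:8723486-8726326, plus strand), whose introns carry the U22 and related box C/D RNAs, was counted at 538, 581, 526 and 436 CPM in iXist-ChrX-Dom and 536, 580 and 482 CPM in iXist-ChrX-Cast. Snhg4 (chr18:35553409-35558316, plus strand), the host of Snora74a upstream of Matr3, was the steadiest, at 287, 316, 326 and 289 CPM and at 293, 303 and 326 CPM. Their log2 fold changes were -0.03 (SE 0.12) and -0.01 (SE 0.10), and the sign of both depended on the model. Snhg5 (chr9:88521052-88522897, minus strand), the host of the Snord50 pair shown above, was counted at 137, 168, 204 and 169 CPM in iXist-ChrX-Dom and 177, 191 and 190 CPM in iXist-ChrX-Cast, a log2 fold change of -0.13 (SE 0.13, adjusted p = 0.653). For Snhg6 (chr1:9942024-9944118, minus strand), the host of Snord87, the values were 74.2, 92.9, 79.0 and 67.7 CPM and 89.2, 96.0 and 76.9 CPM. Snhg8 (chr3:123507551-123508336, minus strand), the shortest host, was counted at 22.1, 32.7, 34.5 and 27.3 CPM and 28.6, 29.2 and 36.0 CPM. Both genes overlapped between the lines, and Snhg8 gave -0.10 (SE 0.17, adjusted p = 0.818). Snhg12 (chr4:132308677-132311024, plus strand), which carries H/ACA and C/D RNAs together, stood at 90.2, 152, 143 and 124 CPM in iXist-ChrX-Dom and at 89.2, 113 and 143 CPM in iXist-ChrX-Cast (0.15, SE 0.20, adjusted p = 0.763). Replicate 1 was the lowest library of its line for Snhg3, Snhg4, Snhg5, Snhg8 and Snhg12, in each of the lines.

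**Figure D2:**
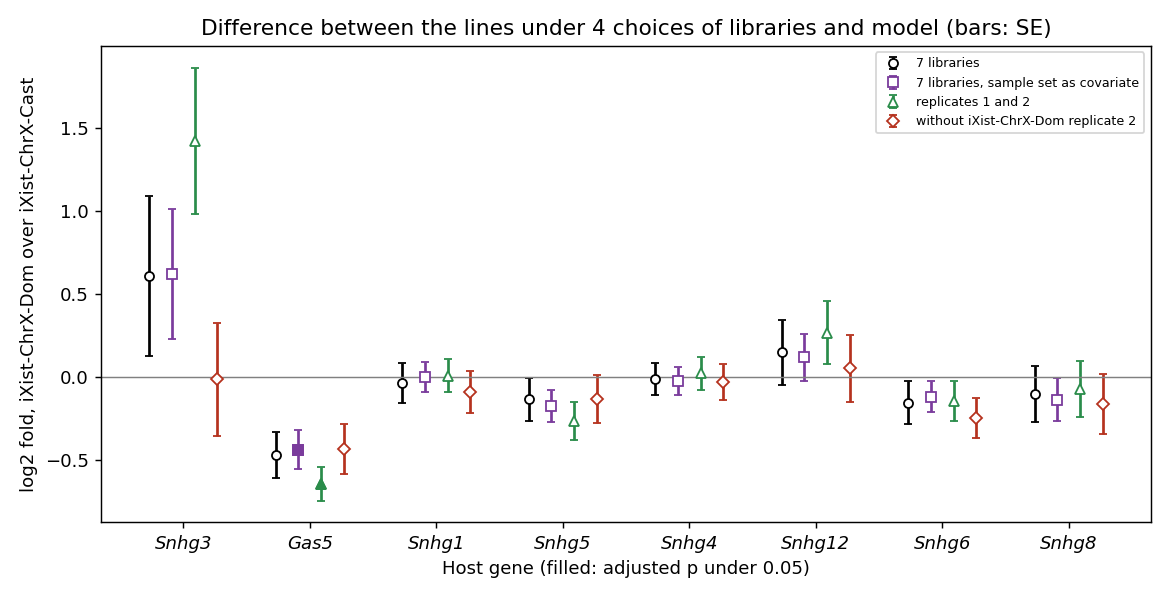
Log2 fold change, iXist-ChrX-Dom over iXist-ChrX-Cast, of each host with its SE under 4 choices of libraries and model, filled where the adjusted p was under 0.05. Gas5 lay between -0.64 and -0.43 and was called under 2 of the 4, and Snhg3 ran from -0.01 without iXist-ChrX-Dom replicate 2 to 1.42 within replicates 1 and 2 without a call.

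Snhg3 (chr4:132351932-132353686, minus strand) varied more between libraries than any other host. It was counted at 712, 3284, 1306 and 1095 CPM in the iXist-ChrX-Dom libraries and at 605, 885 and 1653 CPM in those of iXist-ChrX-Cast. Replicate 2 of iXist-ChrX-Dom stood at 3.16 times the mean of the other 3 libraries of its line (1038 ± 301 CPM, SD, n = 3), on 80816 counted fragments, and both lines overlapped. The log2 fold change between the lines was 0.61 (SE 0.48, adjusted p = 0.574), and without that library it was -0.01 (SE 0.34). Within iXist-ChrX-Dom, 99.5% of the genes tested had a smaller SD of log2 CPM. Against the mean of the other 6 libraries, Snhg3 in iXist-ChrX-Dom replicate 2 was higher by 1.74 on the log2 scale, the third largest excess of 15186 genes and the largest of the 8960 genes with a mean of at least 10 CPM.

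Next to it among those genes was another snoRNA host. Snhg9, which is not one of the 8, had an excess of 1.68 in the same library, at 12.8, 50.5, 13.2 and 10.7 CPM in iXist-ChrX-Dom and 15.1, 20.0 and 27.0 CPM in iXist-ChrX-Cast. Within iXist-ChrX-Dom, the noncoding hosts Snhg7, Snhg15, Snhg16, Snhg17, Snhg20, Zfas1, Epb41l4aos and Dancr were also highest in replicate 2. Snhg10, Snhg11, Snhg14 and Snhg18 were not. The share of all genes that were highest there was not counted. Of the 30 genes with the largest excess in iXist-ChrX-Dom replicate 2, 7 were clustered histone genes, each under 10 CPM in every library. The share of such genes among all genes tested was not counted. Of the further noncoding RNAs looked at, Rmrp and Rpph1 were lowest in replicate 2 within iXist-ChrX-Dom, whereas Terc was highest there. Rmrp, the RNA of the MRP ribonuclease, stood at 376 CPM in iXist-ChrX-Dom replicate 2 and at 350 to 1031 CPM elsewhere. Rpph1, the RNA of ribonuclease P, stood at 428 CPM against 392 to 1351 CPM, and Terc at 20.04 CPM against 11.75 to 22.59 CPM. The part of RNA length in these values was not tested. The other 7 of the 8 hosts were not alike in iXist-ChrX-Dom replicate 2: Snhg12 ranked 1472 and Snhg6 3392 of 15186 by excess there, whereas Gas5 ranked 13449. Snhg9, Rmrp, Rpph1, Terc and the histone genes were picked after their values were seen.

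The share of Snhg3 fragments that could be assigned to an allele also stood apart. It was 37.2%, 49.3%, 34.7% and 35.1% in the iXist-ChrX-Dom libraries and 41.3%, 38.2% and 32.3% in iXist-ChrX-Cast. This share depends on where in the gene the fragments lie, since only those over a polymorphism can be assigned. In iXist-ChrX-Dom replicate 2 it lay 12.8 percentage points above the mean of the other libraries, a larger shift than in 99.6% of 9437 genes with at least 100 fragments in every library. The same library had the lowest share for Snhg4 (26.4%, against 29.0% to 39.3% elsewhere), Snhg5 (70.2%, against 75.4% to 83.8%), Snhg8 (76.9%, against 84.7% to 90.2%) and Snhg6 (81.8%, against 83.5% to 84.9%). The shift of Snhg6 was larger in size than in only 60.8% of genes. Other libraries held large shifts too, such as 7.93 points for Snhg5 in iXist-ChrX-Cast replicate 1 and -7.01 for Snhg3 in replicate 3 of that line. For Gas5 the share ran from 74.4% to 77.8% in replicates 1 and 2 and from 79.3% to 80.1% in replicates 3 and 4. For Snhg1 it ran from 31.2% to 32.7% and from 27.8% to 28.4%. Snhg3 was split by sample set too, at 37.2% to 49.3% against 32.3% to 35.1%. The sets overlapped for the other hosts, among them Snhg12 at 69.3% to 76.2%. The share of all genes with such a split was not counted. Every result on total or allelic counts of these genes therefore compares libraries whose fragments may not cover the genes alike, and its part in the differences was not tested.

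**Figure D3:**
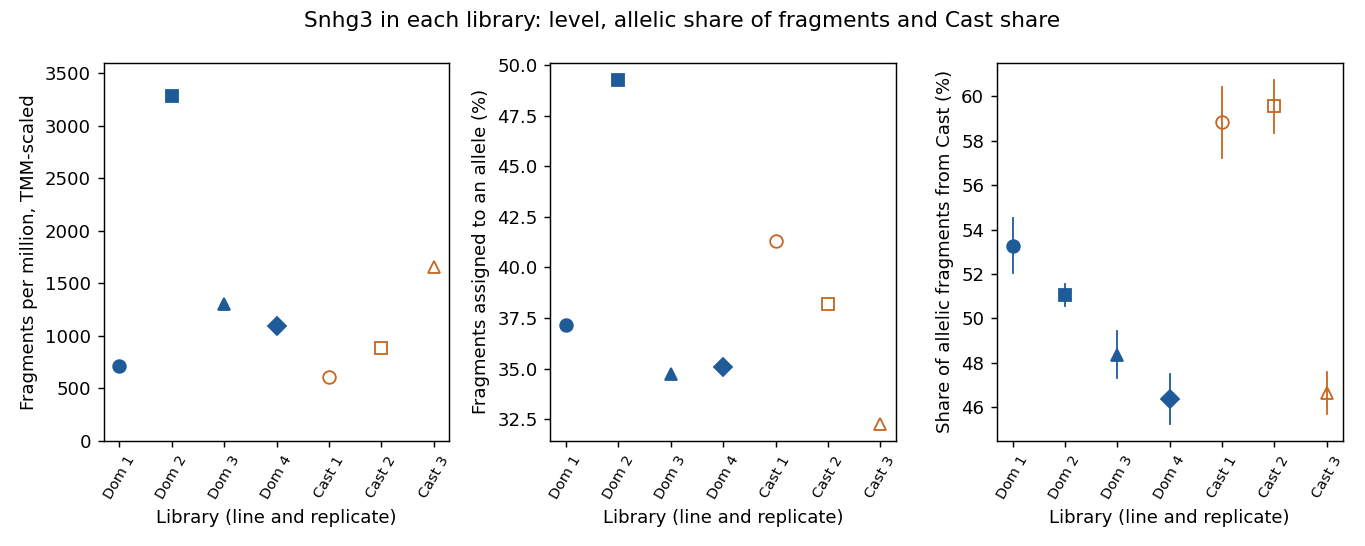
Snhg3 in each of the 7 libraries: CPM, share of its fragments assigned to an allele, and share of allelic fragments from Cast with 95% Wilson intervals. Replicate 2 of iXist-ChrX-Dom stands apart in the first and second panels at 3284 CPM and 49.3%, and in the third replicates 1 and 2 of both lines (51.1% to 59.6%) lie above replicates 3 and 4 (46.4% to 48.4%).

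The comparison of the sample sets describes how the hosts vary within a line. With line as a covariate, 0 of 8 hosts passed edgeR's test, against 30.3% of all genes. At an unadjusted p under 0.05 the count was 2 of 8 (Snhg1 and Snhg6), beside 41.9% of all genes, and DESeq2 called 0 of 8, beside 27.3%. Snhg1 differed by -0.21 (SE 0.09, adjusted p = 0.0861) and Snhg6 by -0.22 (SE 0.10, adjusted p = 0.0909), replicates 3 and 4 minus replicates 1 and 2. Snhg12 had the largest positive difference, 0.28 (SE 0.14, adjusted p = 0.147). For 3 hosts the outcome turned on iXist-ChrX-Dom replicate 2: without it Snhg3 was higher in replicates 3 and 4 by 0.95 (adjusted p = 0.000207), Snhg12 by 0.53 (adjusted p = 0.00163) and Snhg8 by 0.40 (adjusted p = 0.0172), where with it Snhg3 gave 0.07 (SE 0.39, adjusted p = 0.915) and Snhg8 0.23 (SE 0.13, adjusted p = 0.187). Snhg6 was called at -0.31 (adjusted p = 0.0328) without iXist-ChrX-Dom replicate 1.

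The allelic counts ask which parental copy of each host gave more chromatin RNA, with both copies read in the same cells. Over both lines, 5 of 8 hosts differed between the alleles by edgeR, against 8713 of 12932 genes (67.4%). How the hosts compared with genes in general depended on the scaling. With each allele scaled to its own total, edgeR called Snhg1 (log2 ratio of Cast to Dom 0.08, adjusted p = 0.0297) and Snhg3 (0.18, adjusted p = 0.0155) besides those 5. It then called 8445 of 12932 genes. With the main scaling, the median absolute log2 ratio of the 8 hosts was 0.20 and that of all genes 0.34. More fragments came from Dom for 4 of the 5 (Snhg4, Snhg5, Snhg6 and Snhg12) and from Cast for Gas5, while over all genes 43.2% were called toward Dom and 24.1% toward Cast. The Cast share lay on the same side of 50% in all 7 libraries for 4 hosts, where 45.6% of all genes did so.

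Snhg4 and Snhg5 gave the largest differences. The Cast share of Snhg4 was 41.5%, 41.2%, 40.4% and 40.7% in iXist-ChrX-Dom and 43.1%, 41.9% and 41.1% in iXist-ChrX-Cast, on 1637 to 2504 allelic fragments, with 95% Wilson intervals of at most 2.4 percentage points to a side. That of Snhg5 was 42.2%, 37.3%, 43.6% and 42.3% in iXist-ChrX-Dom and 42.1%, 41.2% and 43.1% in iXist-ChrX-Cast. All these values lay below 50% and below the median of the chromosome in that library, which was 45.5% to 46.7% for chromosome 18 and 46.1% to 47.2% for chromosome 9. The log2 ratio of Cast to Dom was -0.50 (SE 0.03, adjusted p = 4.82e-12) for Snhg4 and -0.48 (SE 0.04, adjusted p = 1.65e-10) for Snhg5. Matr3, the protein-coding gene 3841 bp downstream of Snhg4 on the same strand, went the other way, with a ratio of 1.16 (adjusted p = 3.59e-19).

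Gas5 was the one host called toward Cast. Its Cast share was 57.1%, 51.7%, 55.6% and 56.9% in iXist-ChrX-Dom and 54.3%, 52.9% and 53.0% in iXist-ChrX-Cast, above 50% in all 7 libraries on 9536 to 15739 allelic fragments. The log2 ratio was 0.25 (SE 0.03, adjusted p = 2.55e-07), where the median of the other chromosome 1 genes was -0.28. Zbtb37, which starts 906 bp away on the opposite strand, gave 0.11 (adjusted p = 0.103). Snhg6 lay toward Dom at 46.9%, 47.8%, 43.6% and 48.7% in iXist-ChrX-Dom and 42.8%, 39.5% and 47.1% in iXist-ChrX-Cast (-0.30, SE 0.05, adjusted p = 9.58e-06), close to the median of its chromosome (-0.28). In iXist-ChrX-Cast replicates 1 and 2, the libraries with the lowest Cast share of chromosome 1, Snhg6 also had its lowest shares.

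Snhg12, Snhg1 and Snhg8 were nearer to balance, and Snhg3, whose share differed between the sample sets, is described further on. Snhg12 stood at 46.1%, 48.7%, 50.7% and 50.3% in iXist-ChrX-Dom and 49.2%, 43.1% and 45.8% in iXist-ChrX-Cast (-0.15, SE 0.04, adjusted p = 0.00317), and its call was lost with limma on log2 allele ratios (adjusted p = 0.0685) and with scaling to the autosomal total of each allele (adjusted p = 0.0551). Snhg1 was even, at 49.6%, 52.7%, 51.4% and 50.4% and at 50.1%, 50.6% and 49.0% (0.03, SE 0.03, adjusted p = 0.436). It was called toward Cast at 0.09 (adjusted p = 0.0195) with the autosomal scaling and at 0.08 (adjusted p = 0.0297) with each allele's own total. For Snhg8, the host with the fewest allelic fragments (367 to 642), the shares were 49.8%, 45.2%, 48.7% and 50.2% and 51.8%, 45.4% and 52.5%, with intervals of up to 5.09 percentage points to a side. Its ratio over both lines was -0.05 (SE 0.06, adjusted p = 0.466). The median ratio of the other genes of the chromosome was -0.13 for Snhg12, -0.22 for Snhg1 and -0.25 for Snhg8. Over all genes tested the median was -0.13. Snhg12 thus lay close to the median of its chromosome, and Snhg1 and Snhg8 lay toward Cast of theirs.

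**Figure D4:**
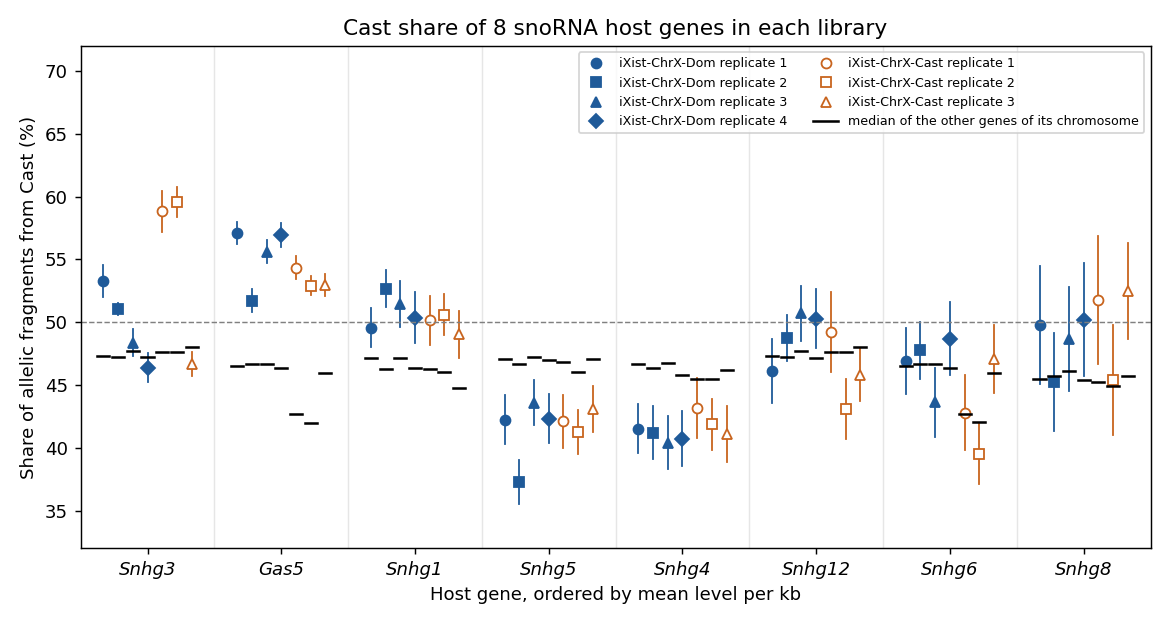
Share of allelic fragments from Cast for each host in each library, with 95% Wilson intervals as vertical lines and the median of the other genes of its chromosome in that library as a black bar. Snhg4 and Snhg5 lie below 50% and Gas5 above 50% in all 7 libraries, and the chromosome 1 bars of iXist-ChrX-Cast replicates 1 and 2 sit at 42.7% and 42.0%.

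Between the lines the allele ratios of the hosts did not differ by edgeR, in 0 of 8 against 2252 of 12932 genes (17.4%). At an unadjusted p under 0.05 the count was 3 of 8 (Snhg3, Snhg6 and Snhg12), beside 24.6% of all genes, and limma called 0 of 8, beside 14.1%. Within iXist-ChrX-Dom 4 of 8 hosts differed between the alleles (Gas5, Snhg4, Snhg5 and Snhg6), against 61.6% of genes, and within iXist-ChrX-Cast 6 of 8, with Snhg3 and Snhg12 added, against 55.8%. With limma, which called 52.5% of genes in iXist-ChrX-Cast and 56.2% in iXist-ChrX-Dom, 4 of these calls were lost at ratios close to those of edgeR. In iXist-ChrX-Cast they were Gas5 (0.20, edgeR 0.20, adjusted p by limma = 0.0716), Snhg3 (0.29, edgeR 0.27, adjusted p by limma = 0.162) and Snhg12 (-0.23, edgeR -0.24, adjusted p by limma = 0.0688), and in iXist-ChrX-Dom Snhg6 (-0.19 by both, adjusted p by limma = 0.106). Within replicates 1 and 2 alone the difference between the lines was called for Snhg6 (0.38, adjusted p = 0.00351) and Snhg3 (-0.42, adjusted p = 4.05e-06). Without iXist-ChrX-Cast replicate 3 the same genes were called, Snhg6 at 0.34 (adjusted p = 0.00653) and Snhg3 at -0.55 (adjusted p = 8.31e-07). Gas5 was called without iXist-ChrX-Dom replicate 2 (0.18, adjusted p = 0.0168) and Snhg12 without iXist-ChrX-Cast replicate 1 (0.26, adjusted p = 0.047). Single libraries also carried calls within a line: that of Snhg3 in iXist-ChrX-Cast was lost without replicate 1 (0.17, adjusted p = 0.185) or replicate 2 (0.13, adjusted p = 0.337), that of Snhg12 there without replicate 2 (-0.16, adjusted p = 0.0949), and that of Snhg6 in iXist-ChrX-Dom without replicate 3 (-0.13, adjusted p = 0.118).

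The Cast share of Snhg3 followed the sample set more than the line. It was 53.3%, 51.1%, 48.4% and 46.4% in the iXist-ChrX-Dom libraries and 58.8%, 59.6% and 46.6% in those of iXist-ChrX-Cast. The 4 libraries of replicates 1 and 2 thus lay above the 3 libraries of replicates 3 and 4, from 51.1% to 59.6% against 46.4% to 48.4%, a separation that 7.86% of all genes and 3 of the 8 hosts showed in either direction. The other hosts were Snhg4, at 41.2% to 43.1% in replicates 1 and 2 against 40.4% to 41.1% in replicates 3 and 4, and Snhg5, at 37.3% to 42.2% against 42.3% to 43.6%, both with a gap between the sets smaller than the Wilson intervals of the libraries. Tested with line by allele as a covariate, a comparison chosen after these values were seen, the log2 ratio of Cast to Dom in replicates 3 and 4 differed from that in replicates 1 and 2 by -0.45 (SE 0.06, adjusted p = 6.22e-05), and Snhg3 was the 1 host among 145 genes called (1.12%). Leaving out each library in turn kept the ratio between -0.54 and -0.26, with adjusted p at most 0.00201. Over both lines the mean ratio was 0.13 (SE 0.06, adjusted p = 0.0605), with the replicate block it was 0.13 (adjusted p = 0.00257), and it was called at 0.16 (adjusted p = 0.0274) without iXist-ChrX-Dom replicate 4 and at 0.26 (adjusted p = 5.72e-07) without iXist-ChrX-Cast replicate 3. With all 7 libraries edgeR also called it at 0.18 (adjusted p = 0.0155) with each allele's own total and at 0.19 (adjusted p = 0.0123) with its autosomal total. The filter of at least 1 allelic fragment in every sample gave 0.13 (adjusted p = 0.0395). The difference between the lines was -0.29 (SE 0.12, adjusted p = 0.124), and with the replicate block -0.24 (adjusted p = 0.0266). The share of Snhg3 fragments assigned to an allele was split along the same sample sets, as given above. Its part in the Cast share was not tested. The chromosome 4 median, 47.2% to 48.1% in all 7 libraries, did not move with the sample sets as the Cast share of Snhg3 did. Snhg12, which lies on chromosome 4 on the opposite strand from Snhg3, gave 0.11 for the same contrast (SE 0.07, adjusted p = 0.592).

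Start sites were examined for letters the hosts share, because genes of the translation machinery and several snoRNA hosts are known to begin with a run of pyrimidines (C or T). The RefSeq promoter table (GRCm38.p6) held a window for 6 of the 8 hosts within 5 bp of the start used in the count files. From 35 bases before the start to 15 bases from it onward, with the pyrimidines that follow directly from the start in capitals, these windows read as follows.
Gas5 (chr1:161035131-161035180, plus strand): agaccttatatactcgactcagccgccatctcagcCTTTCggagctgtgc
Snhg1 (chr19:8723452-8723501, plus strand): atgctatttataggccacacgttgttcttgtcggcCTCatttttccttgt
Snhg8 (chr3:123508322-123508371, minus strand): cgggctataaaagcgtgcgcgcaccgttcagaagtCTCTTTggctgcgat
Snhg12 (chr4:132308643-132308692, plus strand): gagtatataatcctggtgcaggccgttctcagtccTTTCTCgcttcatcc
Snhg5 (chr9:88522883-88522932, minus strand): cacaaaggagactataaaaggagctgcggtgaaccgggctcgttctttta
Snhg3 (chr4:132353672-132353721, minus strand): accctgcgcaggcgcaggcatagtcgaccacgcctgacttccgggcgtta
A run of at least 5 pyrimidines from the start was present in 3 of the 6 (Gas5, Snhg8 and Snhg12), and in 4.43% of the 32850 promoters of the table. The letters TATAAA, on either strand anywhere in the 300 bases, were present in 4 of the 6 and in 13.6% of all promoters. The E-box letters CACGTG, which read the same on both strands, were in 0 of the 6 and in 7.15% of all. A run that begins a base or more away from the annotated start was not counted. The 3 hosts with a run did not move together in the counts: across the 7 libraries the correlation of log2 CPM was 0.80 between Snhg8 and Snhg12, 0.03 between Gas5 and Snhg8 and -0.48 between Gas5 and Snhg12, given as a description.

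Few of the other genes of the pathway were called between the lines without a block, and more were called with one. Of 12 other noncoding snoRNA hosts tested, 1 was higher in iXist-ChrX-Dom and 0 were lower. That was Snhg11, at 15.0, 16.7, 16.7 and 17.6 CPM in iXist-ChrX-Dom and 10.1, 10.1 and 11.3 CPM in iXist-ChrX-Cast (0.66, SE 0.13, adjusted p = 0.0349). The median log2 fold change of the 12 was 0.17, and that of all genes -0.00. With the replicate block, under which 11.8% of all genes were called, 4 of the 12 were higher, Snhg11 (0.63, adjusted p = 0.00464), Snhg15 (0.38, adjusted p = 0.0192), Snhg16 (0.73, adjusted p = 0.000127) and Snhg17 (0.39, adjusted p = 0.0232), and Dancr was lower (-0.36, adjusted p = 0.0379). The other 11, with the log2 fold change of each in parentheses, were Snhg7 (0.24), Snhg9 (0.08), Snhg10 (-0.49), Snhg15 (0.27), Snhg16 (0.69), Snhg17 (0.34), Snhg18 (0.19), Snhg20 (-0.14), Zfas1 (0.16), Epb41l4aos (0.05) and Dancr (-0.43), none called without the block. Snhg15, Snhg16 and Snhg17 were highest in iXist-ChrX-Dom replicate 2, at 135, 168 and 159.5 CPM. The rest of that line ran from 69.8 to 99.9, 92.0 to 101 and 111 to 118 CPM. The iXist-ChrX-Cast libraries ran from 72.7 to 93.1, 58.1 to 77.7 and 81.95 to 112 CPM. The part of iXist-ChrX-Dom replicate 2 in these calls was not tested. Of 24 protein-coding hosts, mostly ribosomal proteins and translation factors, 0 were called (median -0.08). Neither were any of the 4 box C/D proteins tested (Fbl, the methyltransferase fibrillarin, with Nop56, Nop58 and Snu13; median -0.21), the 4 H/ACA proteins (Dkc1, the pseudouridine synthase dyskerin, with Nhp2, Nop10 and Gar1; median -0.08), the 10 assembly factors (median -0.02) or the 10 factors of nonsense-mediated decay (median 0.06). With the sample set as a covariate, under which 15.8% of all genes were called, the noncoding hosts had 2 higher in iXist-ChrX-Dom (Snhg11 and Snhg16) and 1 lower (Dancr, -0.38, adjusted p = 0.0489). The protein-coding hosts had 1 higher (Rpl13, 0.38, adjusted p = 0.0322), the assembly factors 1 (Naf1, 0.35, adjusted p = 0.0112) and the decay factors 2 (Upf1, 0.33, adjusted p = 0.0256, and Upf3a, 0.46, adjusted p = 0.0028). The replicate block called the same 4 genes of these lists higher, and Upf3b lower (-0.39, adjusted p = 0.0363). All 4 lie on chromosome 8, while Dancr lies on chromosome 5 and Upf3b on the X chromosome. The part of these chromosomes in the calls was not tested. Among the embryonic stem cell markers Tdgf1 was lower in iXist-ChrX-Dom (-0.52, adjusted p = 0.0365). With the sample set as a covariate 3 were lower (Tdgf1, Klf4 and Tfcp2l1) and 1 higher (Zfp42, also on chromosome 8). Both neural precursor markers tested were higher in iXist-ChrX-Dom with that covariate, Pax6 by 1.33 (adjusted p = 1.27e-05) and Nes by 0.55 (adjusted p = 0.0278), and with the block, and their part in the results was not tested.

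No row of the count files overlaps a host on either strand. Snhg3 and Rcc1, the exchange factor gene that lies next to it on the same strand, had the highest correlation of log2 CPM of any host and its nearest rows, 0.94 over the 7 libraries, at levels far apart. Rcc1 stood at 45.7, 63.0, 55.4 and 46.0 CPM in iXist-ChrX-Dom and 43.1, 47.1 and 52.4 CPM in iXist-ChrX-Cast, highest in the library where Snhg3 was highest, though over a 1.46-fold range. Of the 8 Rcc1 transcripts in GENCODE, 1 starts inside Snhg3, beyond the end that the files' annotation gives to Rcc1, so fragments of that transcript over Snhg3 would have been counted in Snhg3. Mcmdc2, 1070 bp from Snhg6 on the opposite strand, was higher in iXist-ChrX-Dom (0.65, adjusted p = 0.0472), with Snhg6 at -0.15. Across the 7 libraries the mean log2 CPM of the 8 hosts was followed most closely by Snhg8 (Pearson r = 0.89), Snhg4 (0.88), Snhg12 (0.84) and Snhg3 (0.82) and least by Gas5 (-0.06). Among the other genes with the most similar pattern were Chst1 (r = 0.95), Gckr (0.94), Stard4 (0.94) and Rdh11 (0.94), of which Chst1 and Gckr stayed under 2 CPM. These correlations rest on 7 libraries that share line and sample set, and are descriptions.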

How the data were processed

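ChrRNA-seq libraries of iXist-ChrX-Dom (n = 4) and iXist-ChrX-Cast (n = 3) were grouped by line as the labels give it. Per the submitters' processing notes and the study's methods, reads from ribosomal RNA were first removed by the authors (Bowtie2 2.3.2), who aligned the rest with STAR 2.4.2a to mm10 masked at strain polymorphisms, kept unique alignments and assigned fragments to alleles with SNPsplit. The deposited values are stranded counts of fragments over whole transcript spans, per the file headers made with featureCounts 1.5.2, in which a fragment touching more than 1 gene is not counted. The deposited ratio tables give the fraction of allelic fragments of X-linked genes and were used only to check which count column is Cast. The annotation's start lies 1 base below RefSeq's for 6 of the 8 hosts.

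Total counts were tested by edgeR 4.0.16 under R 4.3.3 (TMM, filterByExpr, quasi-likelihood F test, two-sided, Benjamini-Hochberg over all genes tested, threshold 0.05). Allelic counts were tested with sample as a factor, for genes with at least 10 allelic fragments in more than 80% of samples, both alleles of a sample scaled to their mean total. CPM are counts scaled by TMM to a library of 1000000, and CPM per kb divides by the files' gene length. Wilson intervals (95%) cover counting error only, as the fragments carry no molecular identifiers. The study calls the iXist-ChrX-Dom libraries replicate experiments and those of iXist-ChrX-Cast replicates. No source says outright that they were separate cultures, so p-values measure the spread between these samples, which may be technical. DESeq2 1.42.0, limma 3.58.1 (offset of 0.5 fragments), other scalings and filters, a replicate block, a sample set covariate, replicates 1 and 2 alone and leaving out each library were the alternatives. Of these, the allele comparison by sample set, the chromosome medians and the ranking of single-library excess were added after seeing the data. Deviations of same-numbered libraries of the lines correlated at 0.329, 0.275 and 0.466, so the numbers were taken to pair the samples by the rule that every pair exceeds 0.1, although different numbers of the same sample set correlated at 0.323 to 0.505. These values therefore cannot tell pairing by number from a shared sample set, and the replicate block was used only as an alternative. The fits were tested on simulated data. The 8 hosts, the pathway lists and the markers were chosen with earlier results of these data known. Named genes are the 8 hosts, all listed noncoding hosts, up to 3 called genes of each other list, the nearest rows and the 5 genes most like the hosts' mean. Some genes that this rule names are not reported here. Promoters and snoRNA sequences are from RefSeq and GENCODE. Sequences of Snhg4 are not shown, and 2 hosts had no promoter entry.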

Additional observations from a re-analysis of the deposited data

Results flagged for a closer look

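In the 4 libraries of iXist-ChrX-Dom, the share of Snhg3 fragments assigned to an allele was far from the others in replicate 2, at 49.3% against 34.7% to 37.2%, a gap of 0.832 of the whole range, just above the 95% critical value of Dixon's test. Chance flags about 1 in 20 such groups, and 24 were examined (3 measures of 8 hosts). The Snhg3 level of that library, 3284 CPM, gave a gap of 0.769, below the critical value.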

How the results depend on the processing

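Over 760 values of single hosts under alternatives, 675 kept their direction and their side of the threshold, 46 changed sign, 28 became called and 11 lost their call. Of those that changed sign, 1 was called: the allele ratio of Snhg3 in iXist-ChrX-Dom within replicates 1 and 2 (adjusted p = 0.0103). By line, the count of genes called moved from 443 to 1098 with DESeq2, 1794 with the replicate block, 2398 with the sample set as a covariate, 1685 within replicates 1 and 2 and 18 to 1206 when single libraries were left out (18 without iXist-ChrX-Cast replicate 2, 1206 without iXist-ChrX-Cast replicate 3). Between the sample sets it moved from 4606 to 2851 within iXist-ChrX-Dom and to 2518 to 4501 with single libraries left out, and for the allele comparison by sample set from 145 to 77 to 173. Signs changed by line for Snhg1 (0.044 with the replicate block, 0.00092 with the sample set covariate, 0.0080 within replicates 1 and 2) and Snhg4 (0.010 with library size alone, 0.012 with the block, 0.022 within replicates 1 and 2). Between the sample sets within iXist-ChrX-Dom, Gas5 gave 0.082 and Snhg3 -0.72. The allele ratio changed sign in iXist-ChrX-Dom for Snhg3 (0.0052 with each allele's own total, 0.055 with its autosomal total, 0.010 with the block, 0.012 with the sample set covariate, 0.12 within replicates 1 and 2) and Snhg12 (0.013, autosomal). In iXist-ChrX-Cast it did so for Snhg1 (0.082 own, 0.045 autosomal, 0.023 within replicates 1 and 2) and Snhg8 (0.078 own, 0.041 autosomal, 0.015 with the block, 0.00019 with the sample set covariate). Over both lines Snhg8 gave 0.0057 (autosomal), and the difference between lines of Snhg1 was -0.0037 (own). With single libraries left out, values by line ran from -0.10 to 0.042 for Snhg1, -0.048 to 0.034 for Snhg4, -0.19 to 0.012 for Snhg8 and -0.013 to 1.10 for Snhg3, and by sample set from -0.27 to 0.076 for Gas5 and -0.73 to 0.95 for Snhg3. The allele ratio ran from -0.076 to 0.050 for Snhg3 in iXist-ChrX-Dom, from -0.024 to 0.022 for Snhg1 and -0.10 to 0.13 for Snhg8 in iXist-ChrX-Cast, and from -0.10 to 0.015 for Snhg8 over both lines. Its difference between the lines ran from -0.094 to 0.035 for Snhg5 and -0.22 to 0.0047 for Snhg8, and that between the sample sets from -0.043 to 0.11 for Gas5, -0.090 to 0.0029 for Snhg1 and -0.077 to 0.22 for Snhg6. Without division by gene length Snhg4 ranked 4 and Snhg5 ranked 5. Apart from the blocked values printed with the results, the replicate block changed no call of a host. The cause of these changes was not tested. Snhg8, with 407 to 805 fragments a library, is the host whose values depth limits most.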
